A study of Homo sapiens with 18 samples.

Results

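The 9 S100 genes described here, S100P, S100A2, S100A4, S100A6, S100A10, S100A11, S100A13, S100A14 and S100A16, were followed in the colon carcinoma line Caco-2, which is of human origin and much used to study gut epithelium, with and without riboflavin (vitamin B2). They were taken as the 12 probe sets, of 54675 on the array, whose platform annotation names exactly one of these symbols. Family members were picked with their values on these arrays known, by their level as log2(signal + 16) in all 6 groups of the study. Their differences between groups are therefore given as a description, with their standard error (SE) but without a p-value. The groups were riboflavin-depleted cells at 24, 48 and 72 h and control cells at 24, 48 and 72 h, with 3 Affymetrix arrays each and 18 in all. Depleted cells were labelled ribo deficient and the growth protocol names a DMEM free of riboflavin, while control cells were untreated, in DMEM. Media held foetal calf serum with penicillin and streptomycin, and a dialysed serum of the same batch was used in cultures that the labels do not name. The sample numbering runs through the 6 groups 3 times and so defines 3 sets of 6 arrays. In set 2 the titles of control and depleted cells at 24 h and of control cells at 48 h carry a suffix that the labels do not explain, and sets, same-set pairs and the block rest on this numbering. Nothing in the labels says whether the replicates were separate cultures, so the tests measure only the spread between these samples.

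S100 proteins are small proteins that bind calcium through a pair of EF-hands, helix-loop-helix folds that hold the ion. Most form dimers, and calcium opens a surface with which they grip other proteins such as annexins, ezrin or myosin. They have no enzyme activity of their own and are known in epithelia for roles in membrane organisation, cell motility and differentiation. S100P is known from placenta and from tumours of the digestive tract.

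Of the 20 S100 genes located in the RefSeq annotation (GRCh38.p14), 16 lie on chromosome 1, among them 8 of the 9 described here. S100A10 and S100A11 are neighbours there. Further along the chromosome S100A6, S100A5, S100A4, S100A3, S100A2, S100A16, S100A14, S100A13 and S100A1 follow each other with no other protein-coding gene between them. S100P lies apart, on chromosome 4. Below are the 250 bases before the transcription start of S100P, whose level differed most between media in the average over the times, of S100A14 and of S100A10, taken from RefSeq (GRCh38.p14) and written 5′ to 3′ on the strand of the gene. Capitals mark matches, on either strand, to the motifs listed after them. The windows are chr4:6693628-6693877 on the plus strand for S100P, chr1:153616326-153616575 on the minus strand for S100A14 and chr1:151993860-151994109 on the minus strand for S100A10.
S100P: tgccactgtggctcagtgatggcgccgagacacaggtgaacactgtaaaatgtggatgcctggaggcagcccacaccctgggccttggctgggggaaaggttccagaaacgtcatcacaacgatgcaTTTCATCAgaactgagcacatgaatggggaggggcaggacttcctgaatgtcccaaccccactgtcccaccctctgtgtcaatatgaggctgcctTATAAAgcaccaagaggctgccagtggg
S100A14: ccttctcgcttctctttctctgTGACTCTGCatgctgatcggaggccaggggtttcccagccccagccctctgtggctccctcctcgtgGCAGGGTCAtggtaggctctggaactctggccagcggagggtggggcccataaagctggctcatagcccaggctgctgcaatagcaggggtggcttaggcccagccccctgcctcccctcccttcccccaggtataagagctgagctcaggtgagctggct
S100A10: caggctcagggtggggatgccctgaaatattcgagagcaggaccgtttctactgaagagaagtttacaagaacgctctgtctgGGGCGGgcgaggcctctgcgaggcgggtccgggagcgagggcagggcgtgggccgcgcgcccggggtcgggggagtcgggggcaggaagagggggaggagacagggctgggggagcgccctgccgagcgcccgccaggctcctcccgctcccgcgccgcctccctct

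The motifs searched on both strands were the TATA box TATAAA, the GC box GGGCGG, the core TGACNNNGC of the antioxidant response element, the AP-1 site TGANTCA, the core TGATGNAA of the amino acid response element and the cAMP response element TGACGTCA. Letters of the antioxidant and AP-1 motifs can overlap in a sequence. The motifs were chosen with earlier results of these data known. The S100P window held a TATA box from 28 to 23 bases before the start and, on the opposite strand, the letters of the amino acid response core from 123 to 116 bases before it. Among 35116 windows of this length the TATA box stood in 10.7% and the amino acid response core in 3.14%. Of the 13 windows of the 9 genes, some of which have several starts, only 1 of S100P held that core. A TATA box also stood in 1 window each of S100A4 and S100A13. The S100A14 window held 2 antioxidant response cores, a motif found in 10.9% of all windows and in 1 window of S100A13. The GC box stood once in the S100A10 window and in 1 window each of S100A11, S100A13 and S100A16, and 3 times in that of S100A6, and 42.6% of all windows held it. The AP-1 letters stood in 1 window of S100A2 (6.57% of all windows), and the cAMP response element in 0 of the 13 (1.65%). These matches describe the letters only.

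Signals of 13 markers of intestinal epithelium were looked at, all of which lay above the expression filter described below on average. They ran from 4511 to 13001 for EPCAM and from 739 to 1989 for VIL1 over the arrays. Some were weak, with median signals of 11.75 for CDX1, 19.4 for KRT20 and 32.6 for ALPI, beside a filter at 19.6. Of the 13, 2 were called lower in depleted cells in the averaged effect (4.26% of all probe sets called in either direction). Both were lower in 9 of 9 same-set pairs and are named after their values were seen. The share of all probe sets lower in all 9 pairs is not given here. SI, the brush border enzyme sucrase-isomaltase, was at -0.92 (SE 0.14, limma adjusted p = 0.00165) and at -1.89 at 72 h. FABP1, the fatty acid-binding protein of enterocytes, was at -1.36 (SE 0.34, limma adjusted p = 0.0293) and at -2.50 at 72 h, with a second probe set at -0.54 (adjusted p = 0.46). At 24 and 48 h SI was at -0.72 and -0.16 (limma adjusted p = 0.39 and 0.953). FABP1 was at -1.09 and -0.49 at these times (limma adjusted p = 0.664 and 0.929). Of the single times, both passed the test at 72 h only. Their part in the difference of S100P was not tested. The leukocyte marker PTPRC had signals of 1.0 to 16.6, below the filter on average. Arrays of set 2 stood apart, with top signals from 27380 up, where no array of sets 1 and 3 went beyond 8574.5. Values are MAS5 signals, the linear per-probe-set summary of Affymetrix, and fold changes come from signals raised by 16, so those of probe sets with low signals are understated. Differences are taken within a probe set, between arrays. Where a gene has several probe sets, the stronger is the one of higher mean signal, which names it and says nothing of RNA levels.

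S100P was higher in depleted cells at every time. Its signal was 561, 548 and 785 in depleted cells at 24 h (sets 1, 2 and 3), against 149, 214.5 and 194 in control cells. At 48 h it was 473, 401 and 659 in depleted cells, against 153, 168 and 178 in control cells. At 72 h it was 581.5, 834.5 and 820.3 in depleted cells, against 324, 450.2 and 537 in control cells. At each time all 3 depleted arrays lay above all 3 control arrays, and depleted exceeded control in all 9 same-set pairs. Groups separated in this direction for 7.5% of the 27307 probe sets tested at 24 h, 8.07% at 48 h and 11.5% at 72 h, and 3.61% had all 9 pairs higher. In these bulk samples more cells of a kind and more RNA per cell cannot be told apart.

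**Figure D1:**
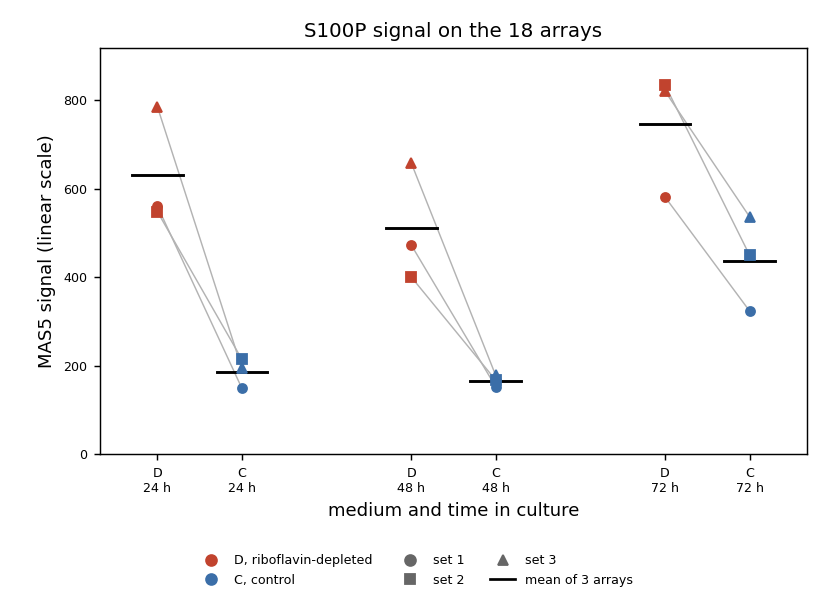
S100P signal (linear MAS5 signal, vertical axis) on each of the 18 arrays, by medium and time. Points are arrays, marker shapes are sets, grey lines join the arrays of a set and black bars are means of 3 arrays. The 3 depleted arrays lie above the 3 control arrays at each time, and control arrays reach 324 to 537 at 72 h, against 149 to 214.5 at 24 h.

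The gap was smallest at 72 h, the time at which control cells had their highest level. The difference in S100P, depleted minus control on the scale of log2(signal + 16), was 1.68 at 24 h (SE 0.25), 1.5 at 48 h (SE 0.25) and 0.76 at 72 h (SE 0.25), which are 3.19-fold, 2.84-fold and 1.69-fold. Within sets it was 1.80, 1.29 and 1.93 at 24 h, 1.54, 1.18 and 1.80 at 48 h, and 0.81, 0.87 and 0.60 at 72 h. Each set thus had its smallest difference at 72 h. In depleted cells the level at 72 h minus that at 24 h was 0.23 (SE 0.25, 1.18-fold), and in control cells it was 1.15 (SE 0.25, 2.22-fold). In control cells the means were 186 ± 33 at 24 h, 166 ± 13 at 48 h and 437 ± 107 at 72 h (SD, n = 3), the last well above the others. Depleted cells had means of 631 ± 133, 511 ± 133 and 745 ± 142 at these times (SD, n = 3). Control cells at 72 h, at 324 to 537, overlapped depleted cells at 48 h, at 401 to 659.

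Without the set as a block, S100P is the only one of these genes that limma called at an adjusted p of 0.05. The fit ran across all probe sets tested, with adjustment over all of them. Averaged over the times, 1 of the 10 probe sets tested was called, against 4.26% of all probe sets tested. With the set as a block 3 were called there, of S100P, S100A14 and the weaker probe set of S100A10 (15% of all). Without the block the count was 1 of 10 at 24 h (0.216% of all) and 1 of 10 at 48 h (0.0806% of all). Each time it was S100P, higher in depleted cells. With the set as a block it was again S100P alone at both times, where 2.37% and 0.692% of all were called. At 72 h it was 0 of 10 (4.16% of all), with 2 at an unadjusted p under 0.05, S100P and a probe set of S100A10. With the set as a block S100P was called higher at 72 h as well (13.3% of all called in either direction). For 72 h minus 24 h limma called 0 of 10 in control cells (0.117% of all), with 1 at an unadjusted p under 0.05, and with the block it called S100P higher (1.22% of all). In depleted cells it called 0 of 10 (2.07% of all), with 0 at an unadjusted p under 0.05 and 0 with the block (10.3% of all). The depletion difference at 72 h minus that at 24 h was called for 0 of 10 (0.645% of all), with 1 at an unadjusted p under 0.05, and with the block for S100P (4.58% of all), where it was -0.92 (block SE 0.24). For 48 h minus 24 h that difference was called for 0 of 10 and 0% of all, with 0 at an unadjusted p under 0.05. The shares of all are those of adjusted calls. The share of all probe sets at an unadjusted p under 0.05 is not given here, so counts at that threshold cannot be judged. These calls come from the contrasts with which the genes were picked and are no separate evidence. The S100P call at 48 h was lost without any single one of the 6 arrays of that time, while those at 24 h and in the average held in all 18 such fits.

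**Figure D2:**
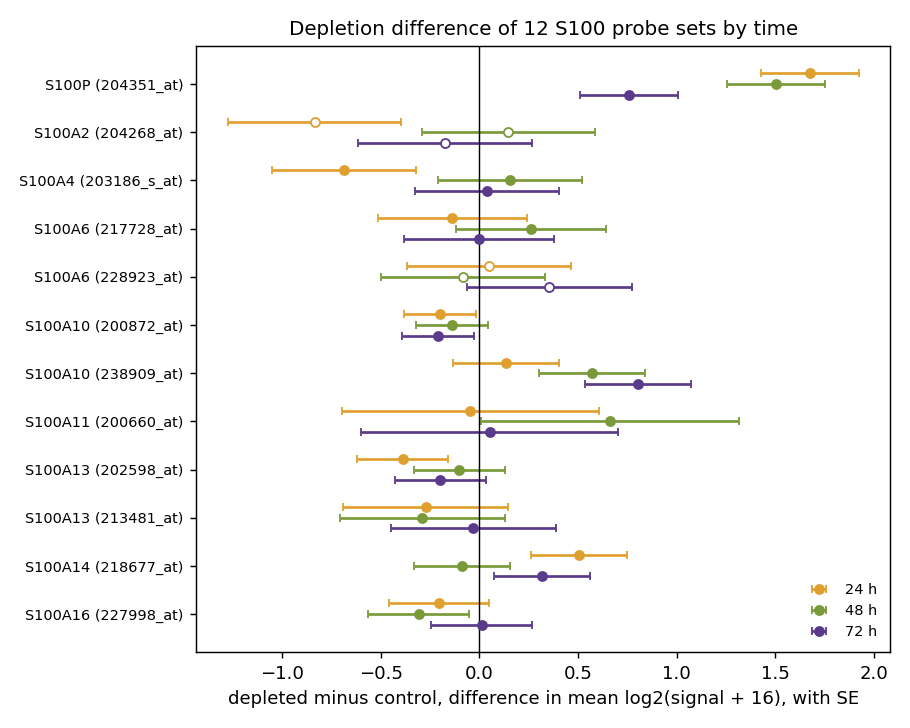
Depleted minus control difference in mean log2(signal + 16) at 24, 48 and 72 h for the 12 S100 probe sets, with bars for 1 SE from limma. Open points are the 2 probe sets below the expression filter. S100P stands at 1.68, 1.5 and 0.76, and the other probe sets lie between -0.84 and 0.80.

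Beside S100P, summed signals of other cell types' markers were taken. The 8 leukocyte markers on the array, of which 6 passed the filter, summed to 411 to 539 in depleted cells at 24 h, against 429 to 495 in control cells. At 48 h they summed to 453 to 543 in depleted cells, against 308 to 441 in control cells, and at 72 h to 453 to 533.5 in depleted cells, against 329.5 to 382 in control cells. The sums did not overlap at 48 and 72 h, with depleted higher, and overlapped at 24 h. The highest median signals were 179.5 for LYZ, 85 for CD14 and 58.55 for CSF1R, and that of PTPRC was 5.45. Of the 6 tested, 0 were called in the averaged effect (4.26% of all) and 1 with the block (15% of all). A part of such cells in the result was not tested. The neutrophil and monocyte genes S100A8, S100A9 and S100A12 were all below the filter. The 11 fibroblast markers summed to 838 to 1248 in depleted cells at 24 h, against 1073 to 1627 in control cells. Their sums were 667 to 1060 in depleted cells at 48 h, against 1148 to 1663 in control cells. At 72 h they were 675 to 698 in depleted cells, against 978 to 1158 in control cells. These sums did not overlap at 48 and 72 h, with depleted lower, and overlapped at 24 h. The highest median signals were 477.25 for PDGFRA and 287.6 for COL1A1. Averaged over the times, COL1A1 was at -0.61, ACTA2 at -0.22 and THY1 at -0.10. LUM was at 0.35, COL3A1 at 0.27 and DCN at 0.11, so the markers did not share one direction. Of the 7 tested, 1 was called in the averaged effect (4.26% of all), PDGFRA, lower in 9 of 9 same-set pairs (share not given). It was at -1.07 (SE 0.18, limma adjusted p = 0.00235), with a second probe set at -0.03 (adjusted p = 0.968). With the block 1 was called higher and 2 lower (15% of all). The part of these markers in the result was not tested either.

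Over the 12 probe sets the averaged depletion difference was positive for 6 and negative for 6, with a median of -0.06 against 0.02 over all probe sets tested. At 24 h it was positive for 4 and negative for 8 (median -0.17, against 0.00 for all), and at 72 h positive for 7 and negative for 5 (median 0.02, against 0.00 for all). The genes of the family did not share one direction.

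S100A10, also called p11, forms a complex with annexin A2 at membranes and, unlike its relatives, does not bind calcium. Its stronger probe set had 4384, 4757 and 4484 in depleted cells at 24 h, against 5368, 5171.5 and 5118 in control cells, so that every depleted array lay below every control array. Groups separated in this direction for 5.28% of all probe sets tested. At 48 h it had 4194, 5495.5 and 4719 in depleted cells, against 4891.5, 5403 and 5505 in control cells, and at 72 h 3543.5, 4376 and 4157 in depleted cells, against 4031, 5458 and 4548 in control cells, with overlap at both times. The differences were -0.20, -0.14 and -0.21 (SE 0.18 each), and depleted was the lower in 8 of 9 same-set pairs.

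The weaker S100A10 probe set had differences of the opposite sign. Its signal was 95.2, 168 and 175.5 in depleted cells at 24 h, against 116, 131 and 137 in control cells. At 48 h it was 191, 153.5 and 136 in depleted cells, against 112, 149 and 61.7 in control cells, and at 72 h 164, 183 and 146 in depleted cells, against 95.1, 71.3 and 96.1 in control cells. Only at 72 h did the groups not overlap, with depleted above control, as for 11.5% of all probe sets. The difference was 0.13 at 24 h, 0.57 at 48 h and 0.80 at 72 h (SE 0.27 each). In the averaged effect it was 0.50 (SE 0.16), not called without the block and called with it. The probe sets of S100A10 thus disagreed in direction, and which transcripts each one reads was not examined.

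S100A14, a family member found mainly in epithelia, had differences of the same sign as S100P at 24 and 72 h. Its signal was 604, 760.2 and 514 in depleted cells at 24 h, against 521, 457 and 334 in control cells. The 48 h signals were 569, 556 and 405 in depleted cells, against 591, 611 and 428 in control cells, and at 72 h 736, 709.9 and 597 in depleted cells, against 660, 569.6 and 419 in control cells. The groups overlapped at each time and set 3 was the lowest in each group, but within every set depleted was above control at 24 h and at 72 h and below it at 48 h. The differences were 0.51, -0.09 and 0.32 (SE 0.24 each). In the averaged effect it was 0.25, with an SE of 0.14 without the block, where it was not called, and of 0.08 with the block, where it was. With the block 3 of the 10 probe sets were called in the averaged effect, those of S100P, S100A14 and the weaker one of S100A10, against 15% of all probe sets.

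S100A11, a partner of annexin A1 at membranes, differed more between sets than between media. Its signal at 24 h was 898, 366 and 1039 in depleted cells, against 891, 315 and 1338 in control cells. The 48 h signals were 596, 644 and 1628 in depleted cells, against 547, 199.7 and 1363.5 in control cells, and at 72 h 414, 459.9 and 925.5 in depleted cells, against 451, 371 and 941 in control cells. Set 3 was the highest in every group. Differences between sets held 72.4% of its variation, against a median of 27.7% over all probe sets tested, and those between groups 9.93%, against 32.4%. The depletion difference was -0.05, 0.66 and 0.05 (SE 0.65 each), and the value at 48 h came mostly from set 2, where it was 1.61.

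S100A6, or calcyclin, which binds the calcyclin-binding protein CACYBP and annexin A11, showed no steady difference. Its signal at 24 h was 414, 244 and 515 in depleted cells, against 475, 248 and 593 in control cells. The 48 h signals were 369, 523 and 545 in depleted cells, against 331, 289 and 624 in control cells, and at 72 h 297, 518 and 439.9 in depleted cells, against 293, 604 and 382 in control cells. Differences were -0.14, 0.26 and -0.00 (SE 0.38 each), with depleted higher in 4 of 9 same-set pairs. The second S100A6 probe set stayed at 2.1 to 45.8 and was below the filter, with differences of 0.05, -0.08 and 0.35 (SE 0.42 each, fitted without the filter).

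S100A13, which takes part in the release of FGF1 and IL1A from cells by a route without a signal peptide, had lower signals in depleted cells at 24 h. Its stronger probe set had 324, 261 and 269 in depleted cells at 24 h, against 385, 369 and 375 in control cells, with no overlap, as for 5.28% of all probe sets tested. By 48 h it had 265, 345 and 196 in depleted cells, against 244, 380.4 and 241 in control cells, and at 72 h 229, 298 and 268 in depleted cells, against 267, 295 and 359.6 in control cells. The differences were -0.39, -0.10 and -0.20 (SE 0.23 each). The weaker probe set, at 19.5 to 89.4, was at -0.27, -0.29 and -0.03 (SE 0.42 each).

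S100A16, a widely expressed member, was lower in depleted cells in every set at 24 and 48 h. Its signal was 784, 782 and 985 in depleted cells at 24 h, against 861, 896 and 1209 in control cells. The next time, 48 h, gave 687.5, 782 and 1003 in depleted cells, against 871, 866 and 1372 in control cells, and at 72 h 797, 1062 and 1073 in depleted cells, against 713, 1226 and 1013 in control cells. The groups overlapped at all times, with differences of -0.21, -0.31 and 0.01 (SE 0.25 each). Sets held 54.4% of its variation.

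S100A4, which binds non-muscle myosin and is known for a role in cell motility, and S100A2, which is known from the nucleus of epithelial cells and binds p53, showed no steady difference. S100A4 had 37.0, 7.0 and 57.8 in depleted cells at 24 h, against 65.4, 60.8 and 44.3 in control cells. By 48 h it had 59.9, 59.1 and 33.7 in depleted cells, against 70.9, 23.3 and 44.2 in control cells, and at 72 h 63.5, 51.3 and 58.3 in depleted cells, against 77.1, 44.6 and 49.3 in control cells. Its difference of -0.69 at 24 h (SE 0.37) rested mostly on the array of set 2, and was -0.21 without it. S100A2 ranged from 1.2 to 45.2 and was below the filter. At 24 h it had 2.7, 6.3 and 6.7 in depleted cells, against 3.7, 33.2 and 39.6 in control cells, with overlap. Signals at 48 h were 3.7, 28.5 and 15.1 in depleted cells, against 12.7, 24.7 and 1.2 in control cells, and at 72 h 15.8, 11.6 and 16.3 in depleted cells, against 3.2, 45.2 and 18.7 in control cells. The groups overlapped at these times too, and its differences were -0.84, 0.15 and -0.17 at 24, 48 and 72 h (SE 0.44 each, fitted without the filter).

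**Figure D3:**
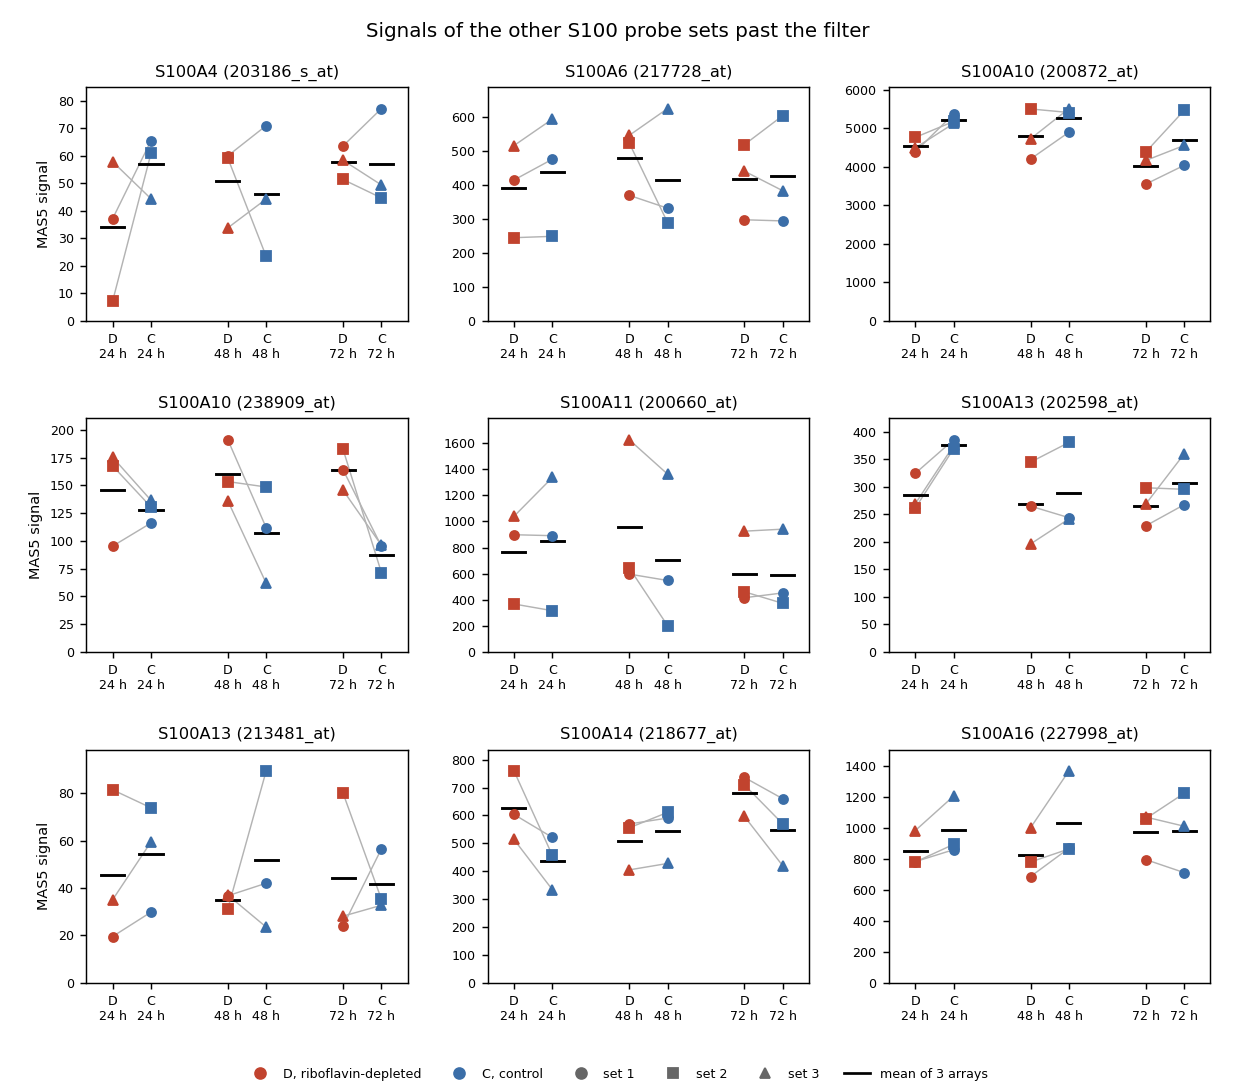
Signals (linear MAS5 signal) of the 9 S100 probe sets past the filter other than S100P, by medium and time, each panel with its own axis from 0. Points are arrays, marker shapes are sets, grey lines join the arrays of a set and black bars are means of 3 arrays. S100A11 is split by set, with set 3 highest, and S100A14 is higher in depleted arrays of each set at 24 and 72 h.

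The rest of the family lay mostly below the expression filter. Of 11 other S100 genes with a probe set, 10 were below the filter, with median signals of 1.95 to 10.6 over the arrays, and all 5 fused-type S100 genes on the array, such as the filaggrin gene FLG, were below it too. S100A7A, a relative of psoriasin, was the one tested. It had 19.6, 65.2 and 26.5 in depleted cells at 24 h, against 38.1, 76.9 and 33.6 in control cells, and over all 18 arrays its signal was highest in set 2. Averaged over the times it was at -0.01 (SE 0.33, limma adjusted p = 0.99, depleted higher in 5 of 9 same-set pairs).

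Genes whose products bind S100 proteins were taken from a list of 22 chosen with earlier results of these data known. Of its 14 tested genes 1 rose and 2 fell in the averaged effect (4.26% of all probe sets called), with a median of 0.01 against 0.02 for all. ANXA1, annexin A1, a calcium-dependent membrane-binding protein and partner of S100A11, rose 1.83-fold (log2 0.88, SE 0.12, limma adjusted p = 0.000584, higher in 9 of 9 same-set pairs). Its signal was 333, 296.5 and 328.5 in depleted cells at 24 h, against 226, 175 and 281 in control cells, and at 72 h 564, 535.5 and 600.4 in depleted cells, against 121, 134 and 189 in control cells. The difference passed the test at 72 h (log2 1.85, adjusted p = 0.000108, limma) and not at 24 h (0.48, adjusted p = 0.534) or 48 h (0.30, adjusted p = 0.842). In depleted cells ANXA1 was thus highest at 72 h, while in control cells it was lowest then.

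ANXA6, annexin A6, changed by -1.01 (SE 0.19, limma adjusted p = 0.00724, lower in 9 of 9 same-set pairs, share of all not given). Its signal was 49.6, 41.9 and 54.6 in depleted cells at 24 h, against 108, 87.3 and 216 in control cells, and the groups did not overlap, as for 5.28% of all probe sets tested. At 48 h it was 39.8, 85.6 and 107.6 in depleted cells, against 103.6, 146 and 129 in control cells, with overlap, and at 72 h 39.8, 71.3 and 45.3 in depleted cells, against 94.1, 143 and 188 in control cells. No single time passed the test (limma adjusted p = 0.249 at 24 h, 0.713 at 48 h and 0.0558 at 72 h). A second ANXA6 probe set was at 0.28 (SE 0.24, adjusted p = 0.619). CACYBP, the calcyclin-binding protein that links S100A6 to ubiquitin ligases, changed by -0.63 (SE 0.13, limma adjusted p = 0.0114, lower in 9 of 9 same-set pairs). It had 1141, 699 and 769 in depleted cells at 24 h, against 1989, 1477 and 1413 in control cells. Of the 3 other CACYBP probe sets tested, none passed, and these were at -0.67 (adjusted p = 0.0678), -0.16 (0.734) and -0.02 (0.965). No value of ANXA2 or EZR passed. ANXA2, annexin A2, the partner of S100A10, was at -0.14 (SE 0.13, limma adjusted p = 0.651), and EZR, ezrin, a membrane-cytoskeleton linker bound by S100P, at 0.20 (SE 0.11, adjusted p = 0.387). AGER, the receptor RAGE for extracellular S100 proteins, had a median signal of 5.85 and was below the filter.

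**Figure D4:**
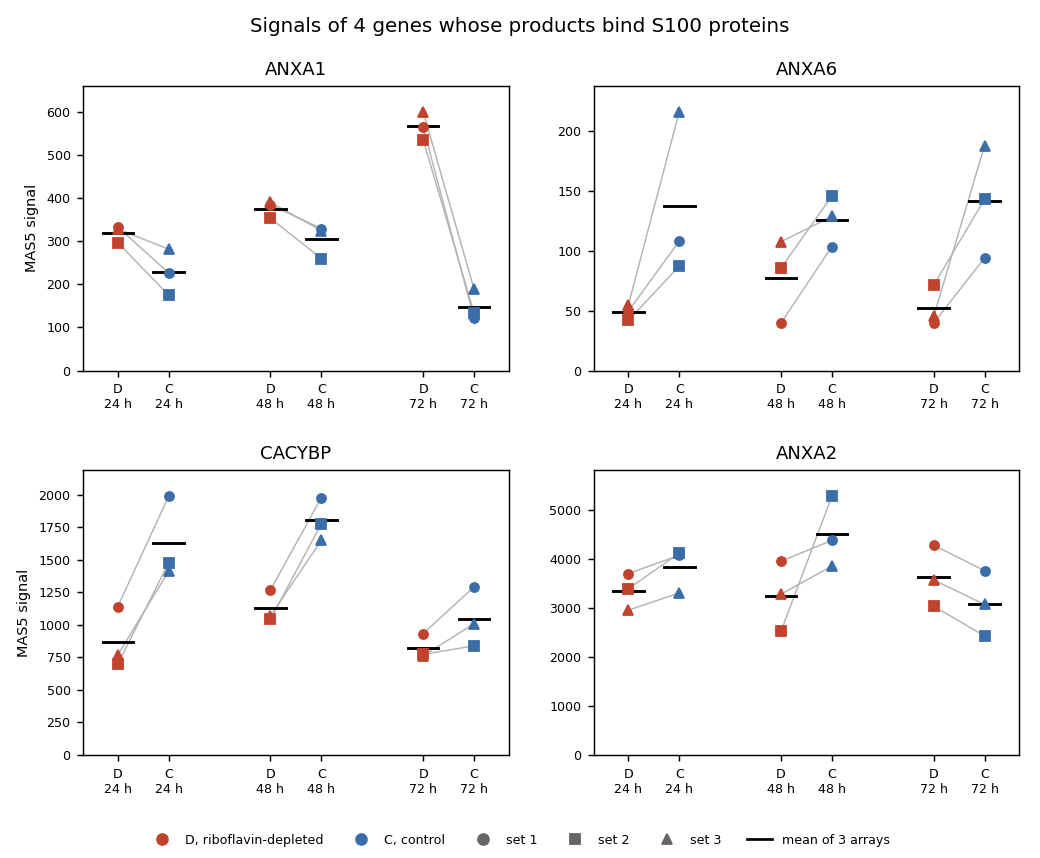
Signals (linear MAS5 signal) of ANXA1, ANXA6, CACYBP and ANXA2 by medium and time, each panel with its own axis from 0. Points are arrays, marker shapes are sets, grey lines join the arrays of a set and black bars are means of 3 arrays. Depleted arrays lie above control arrays for ANXA1 and below them for ANXA6 and CACYBP within every set, while ANXA2 changes sides between times.

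Calcium-binding EF-hand genes outside the S100 family gave no call. Limma called 0 of 16 tested in the averaged effect (4.26% of all), with 1 at an unadjusted p under 0.05 (share of all not given). With the block it called 3, all lower (15% of all called). The differences were positive for 4 and negative for 12, with a median of -0.14 against 0.02 for all probe sets. SRI, sorcin, a regulator of calcium release, was at -0.39 (SE 0.13, limma adjusted p = 0.116), with a second probe set at -0.10 (adjusted p = 0.764). EFHD2, a calcium-binding actin regulator, was at -0.54 (SE 0.30, adjusted p = 0.394), and NUCB2, nucleobindin 2, the precursor of nesfatin, at -0.38 (SE 0.22, adjusted p = 0.409). The second probe sets of both had the opposite sign, at 0.21 for EFHD2 (adjusted p = 0.756) and 0.26 for NUCB2 (adjusted p = 0.514). SRI, EFHD2 and NUCB2 are the genes called with the block.

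The pattern of S100P over the 18 arrays was compared with all other tested probe sets of 1 symbol, after the mean of each set was taken away. The nearest were KCNE3, a potassium channel subunit (Pearson r = 0.96), SLC7A11, the cystine transporter (0.96), FMOD, fibromodulin of the extracellular matrix (0.95), TMEM106B, a lysosomal membrane protein (0.95), and LETMD1, a mitochondrial membrane protein (0.95). The arrays compared share media, times and sets, so these values describe a likeness only. SLC7A11 had depletion differences of 1.77, 0.87 and 0.97 at 24, 48 and 72 h and KCNE3 of 0.88, 0.66 and 0.58. FMOD and LETMD1 had theirs at 0.21 and 0.14 at 72 h, against 0.98 and 0.97 at 24 h. All 5 were higher in control cells at 72 h than at 24 h, by 0.43 to 1.04. As the 5 were picked by their likeness to S100P on these arrays, directions shared with it follow from the choice.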

How the data were processed

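Expression was measured on 18 one-colour arrays, 3 for each of 6 groups. The values are signal intensity per probe set on a linear scale, made with MAS5 by the authors per the submitters' processing notes; its version and genome build are not given in the sources used here, and detection calls were not used here. The 9 genes, the gene lists and the motifs were chosen with earlier results of these data known. Signals were taken as log2(signal + 16). Without the 62 control probe sets, the 27307 probe sets with a mean at or above the median, 5.15, a signal of 19.6, were tested. Of the 12 S100 probe sets 10 passed. Symbols came from the platform annotation, and their Entrez IDs were compared with RefSeq (GRCh38.p14), where 0 symbols differed. A listed gene is described by its probe set of highest mean.

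One limma fit (version 3.58.1, R 4.3.3) held all arrays, with 1 mean per group, no block, and Benjamini-Hochberg adjustment over all probe sets tested, after a test on simulated data. Sets pair the arrays: after group means were removed, arrays correlated at 0.30 to 0.60 within sets (45 pairs) and at most at 0.16 between sets. The fit was therefore repeated with the set as block. Other pseudocounts, filters, normalizations and left-out arrays or sets were alternatives. Named genes were all 9 with every probe set, other S100 genes past the filter, called genes of the lists (or the 3 smallest p), ANXA2, EZR, and the 5 nearest in pattern to S100P. Promoters were read with Python 3.11.15 and figures drawn with matplotlib 3.10.9.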

Additional observations from a re-analysis of the deposited data

Results flagged for a closer look

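S100A14 was flagged because its depletion difference changed sign between times in every set. The share of all probe sets that do so was not counted, and the trait is not particular to S100A14. ANXA2 was lower in depleted cells in every set at 24 and 48 h and higher in every set at 72 h. For S100A14 depleted minus control on the log2(signal + 16) scale was 0.51 at 24 h, with all 3 sets positive. It was -0.0874 at 48 h, with all 3 sets negative, and 0.32 at 72 h, with all 3 sets positive. Within sets it was 0.21, 0.71 and 0.60 at 24 h, -0.05, -0.13 and -0.08 at 48 h, and 0.15, 0.31 and 0.49 at 72 h. The values at 48 h were small beside the SE of 0.24. The depletion difference at 48 h minus that at 24 h was -0.59 (SE 0.34) and was called neither without nor with the block. The difference at 72 h minus that at 48 h was not tested.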

How the results depend on the processing

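Of 1946 recomputed differences of the S100 probe sets, 1938 moved by less than the spread between replicates, 8 moved by more and 0 changed sign after a call. The S100P call in the averaged effect held under every alternative run. These were refits of the arrays with which the genes were picked, so this is no separate evidence. The count of S100 probe sets called there was 1, and became 2 with a filter at the 75th percentile (S100P and the weaker probe set of S100A10) and 3 with the replicate block. At 48 h the count of 1 became 0 with no filter and 0 when centred on the 75th percentile. For 72 h minus 24 h in control cells the count of 0 became 1, S100P, with a filter at the 75th percentile and 1 with the block. The block also gave 1 at 72 h and 1 for the difference of the depletion effect at 72 h from that at 24 h, each S100P. The paired fit changed no other S100 call. Of the other S100 genes 1 was called with no filter, S100G, at a median signal of 4.45. The share of all probe sets called with no filter, or with that at the 75th percentile, is not given here. Of the other EF-hand genes 3 were called with the block, where the count was 0 without it. When any probe set of a gene could count, PPFIBP1 joined the partner genes, giving 4. Leaving out 1 array or 1 whole set gave counts of 1 to 2 in the averaged effect, 0 to 1 at 24 h, 0 to 1 at 48 h and 0 to 3 for the partner genes, where each single-array fit gave 3. The second call, of the weaker S100A10 probe set, appeared without replicate 1 of depleted cells at 24 h and without replicate 2 of control cells at 48 h. Without set 1, 2 or 3 no S100 probe set was called at 24 h or 48 h, and of the partner genes 0 were called without set 1, 1 without set 3 (ANXA1) and 2 without set 2. Fits without a set have 2 arrays a group.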

Other observations

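S100G, the vitamin D-dependent calbindin of intestinal calcium uptake, was below the expression filter but was called lower when no filter was set (log2 -0.76, SE 0.14, limma adjusted p = 0.0126). Its signal was 1.1 to 4.5 in depleted cells, against 3.8 to 43.9 in control cells over the 3 times. The filter stood at a signal of 19.6, and detection calls were not used here. Of the other S100 partner genes, PPFIBP1, a liprin bound by S100A4, passed the test through 1 of its 5 probe sets (log2 0.70, SE 0.15, limma adjusted p = 0.0141), and the one with the highest mean gave -0.00 (SE 0.19, adjusted p = 0.996). Both were looked at after their values were seen.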
